A study of Mus musculus with 31 samples.

Results

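The luminal epithelial transcription factors are 10 genes, *Elf5*, *Ehf*, *Nfib*, *Tfap2c*, *Gata2*, *Gata3*, *Runx1*, *Foxa1*, *Esr1* and *Pgr*, taken by name for their role in luminal and alveolar identity and in the sensing of steroid hormones. They were found by gene symbol among the 55379 genes counted, and all 10 were present. The study asked how peripartum fluoxetine, a selective serotonin reuptake inhibitor, and dietary folic acid (FA) act on the mammary transcriptome at peak lactation. Mammary glands of 31 C57BL/6J dams were collected on lactation day 10 and 1 RNA library was sequenced per dam. Dams were bred from 6 weeks of age on a breeder diet with 4 mg FA per kg diet, or on the same base diet brought to 24 mg per kg (FA diet), and were injected daily from embryonic day 13 with saline or with 20 mg fluoxetine per kg body weight. The labels and methods name no transgene or deletion. By the sample labels, breeder diet + fluoxetine held 7 dams, and breeder diet + saline, FA diet + saline and FA diet + fluoxetine held 8 each. The methods text gives 8 and 7 dams for the 2 fluoxetine groups the other way round, and the groups here follow the labels.

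The luminal layer of the mammary gland holds secretory alveolar cells and hormone-sensing cells. ELF5 is the factor most closely tied to alveolar fate and milk production, and acts beside the prolactin-activated factor STAT5. GATA3, FOXA1 and the oestrogen receptor (ESR1) form the core of the hormone-sensing programme, and the progesterone receptor (PGR) is an oestrogen receptor target that is usually low in lactation.

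Total counts per dam ranged from 15412542 to 36000439. Values are CPM, the usual counts of a gene relative to library size, after scaling by TMM, the normalization of edgeR, and levels of different genes are compared only as CPM per kb of exon. In 28 of the 31 libraries the 20 most abundant genes held between 72.6% and 81.0% of all counts, as lactating tissue makes a few milk transcripts in great excess. The share was 70.1% in FA diet + saline replicate 3, 60.5% in breeder diet + fluoxetine replicate 13 and 39.3% in FA diet + fluoxetine replicate 3. Many results are also given without FA diet + fluoxetine replicate 3, and some without breeder diet + fluoxetine replicate 13 as well. FA diet + saline replicate 3 was left out only where each library was left out in turn and in a fit without the dams numbered 3. The tissue was bulk gland, so that fewer cells of a type and less RNA per cell cannot be told apart.

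Levels spanned the range from *Elf5*, the most abundant, to *Pgr*, with under 1 CPM in every dam. *Elf5* stood at 94.2 ± 18.7 CPM per kb (SD, n = 31), above every other member. *Ehf*, an ETS factor of epithelial cells, followed at 17.1 ± 5.92 CPM per kb. *Nfib*, a nuclear factor I gene whose product binds near milk protein genes, stood at 8.18 ± 2.14 CPM per kb and *Gata3* at 7.44 ± 2.46, which is within the spread between dams. *Tfap2c*, which encodes AP-2γ of the luminal lineage, came next at 3.13 ± 1.63 CPM per kb and *Esr1* at 1.15 ± 0.346. *Runx1*, needed in luminal cells outside the alveoli, stood at 0.366 ± 0.103 CPM per kb. *Foxa1*, the pioneer factor of oestrogen receptor binding, had 0.146 ± 0.109 CPM per kb and *Gata2*, best known from blood cells, 0.0896 ± 0.0745, and these differed by less than their spread. *Pgr* was lowest at 0.0233 ± 0.0267 CPM per kb. The union of all annotated exons was used as length, and it is long for *Nfib* (16395 bases) and *Esr1* (13955 bases), so that their values per kb are low estimates where only short isoforms are made.

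**Figure D1:**
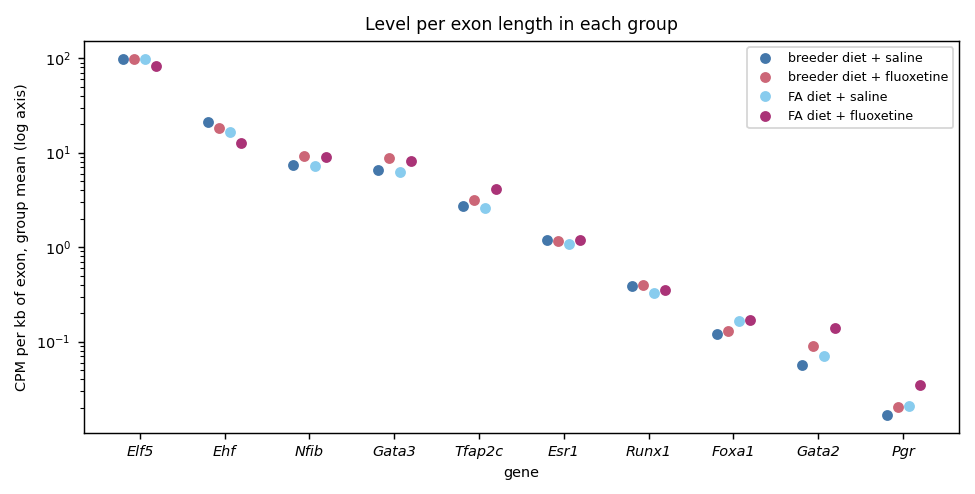
Mean level of each gene in CPM per kb of exon on a log axis, 1 point for each of the 4 groups, with genes in order of their mean over all 31 dams. The group means fall in the same order in all 4 groups, from *Elf5* (94.2 over all dams) down to *Pgr* (0.0233), with *Nfib* and *Gata3* close together.

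FA diet + fluoxetine replicate 3 differed from the other 30 dams in 7 of the 10 members. *Elf5* was 149 CPM in this dam and 420 to 740 CPM in the others. *Ehf* was 24.6 CPM against 42.7 to 158. *Tfap2c* was 43.1 CPM, above the 6.67 to 17.0 CPM of the others, and *Gata3* was 72.4 CPM, above their 20.0 to 51.8. *Gata2* (3.06 CPM), *Runx1* (8.49 CPM) and *Pgr* (0.909 CPM) were also above all other dams, while *Nfib*, *Foxa1* and *Esr1* were inside the others' range. So the 2 ETS members were below every other dam and 5 members were above. TMM gave this library a factor of 3.04, against 0.716 to 1.57 in the others. The comparisons of this dam with the others are on that scale only. All 8 milk protein genes were lower in this dam than in any other, with a summed level of 58609 CPM against 318400 to 970590 CPM. Of the luminal keratin and junction genes used as a reference for luminal cells, 4 of 9 were above all other dams (*Krt7*, *Krt18*, *Krt19*, *Cldn4*), 2 were below (*Epcam*, *Cldn7*) and 3 were within. All 7 fibroblast markers were above all other dams, with a sum of 1004 CPM against 54.7 to 311. So were 5 of 9 adipocyte markers, 5 of 12 leukocyte markers and 5 of 7 mast cell markers, while the mast cell markers *Fcer1a* and *Ms4a2* were at 0. The summed mast cell markers were 71.2 CPM in this dam, of which 52.7 CPM came from *Kit*, which epithelial cells can also express. The part of these cell types in the members' values was not tested.

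**Figure D2:**
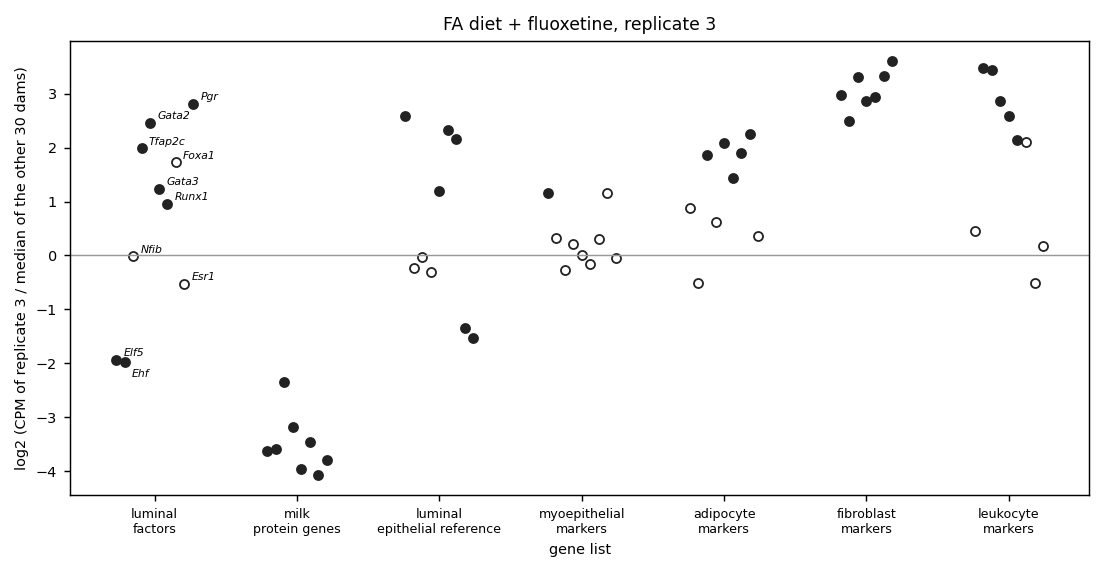
Each point is 1 gene in FA diet + fluoxetine replicate 3, as the log2 ratio of its CPM to the median of the other 30 dams. Filled points lie outside the range of the other dams, which holds for 7 of the 10 luminal factors, and genes at 0 in this dam or in the median are not drawn. *Elf5* and *Ehf* lie near -2, below 0 as all 8 milk protein genes do, and *Pgr*, *Gata2*, *Tfap2c*, *Gata3* and *Runx1* lie above 0.

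No member passed the false discovery rate (FDR) of 10% for fluoxetine, for FA or for their interaction by the quasi-likelihood test of edgeR. Of the 14362 genes tested, 3 passed for fluoxetine (0.0209%), 0 for FA (0%) and 0 for the interaction (0%), and no member passed by DESeq2, which called 70 genes for fluoxetine (0.487%), or by edgeR's likelihood ratio test, which called 45 (0.313%), while both called 0 for FA and for the interaction. *Pgr*, with 169 counts in all dams together, had too few counts for the filter, so that 9 of the 10 members were tested. At an unadjusted p of 0.05 or below, 4 of the 9 were counted for fluoxetine, all of them higher under fluoxetine, where 9.92% of all genes reached that level. For FA it was 1 of 9 where 5.08% of all genes did, and for the interaction 0 of 9 where 3.84% did. DESeq2 and the likelihood ratio test each counted 4, 1 and 0 members at that level, where DESeq2 reached it for 10.9%, 5.54% and 4.45% of all genes and the likelihood ratio test for 9.91%, 4.89% and 3.89%. The median log2 fold change of the members for fluoxetine was 0.08, beside 0.02 over all genes tested, with 7 members higher and 2 lower. For FA the medians were -0.06 and 0.02, with 3 members higher and 6 lower.

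*Elf5*, on chromosome 2 (GRCm39, 103242033 to 103281334, plus strand, ENSMUSG00000027186), had the highest level per kb in each group. Its lowest, median and highest CPM were 509.998, 561 and 655 in breeder diet + saline and 459, 588 and 694 in breeder diet + fluoxetine. They were 448, 604 and 740.3 in FA diet + saline and 149, 487 and 699 in FA diet + fluoxetine. The 4 groups overlapped, and the low value was that of replicate 3. The log2 fold change for fluoxetine was -0.13 ± 0.13 (SE; adjusted p = 0.785 by edgeR) and -0.07 without that dam. It was 0.01 ± 0.19 on the breeder diet and -0.26 ± 0.18 on the FA diet, which holds that dam. For FA it was -0.10 ± 0.13 (adjusted p = 0.970).

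*Ehf* lies on the same chromosome (103093778 to 103133623, minus strand, ENSMUSG00000012350). Its lowest, median and highest CPM were 66.8, 120.03 and 153 in breeder diet + saline and 69.8, 97.5 and 158 in breeder diet + fluoxetine. They were 62.0, 87.1 and 133 in FA diet + saline. The FA diet + fluoxetine dams had 24.6, 71.0 and 110.3. The medians stepped down over these groups while their ranges overlapped. *Ehf* was the 1 member counted for FA, with a log2 fold change of -0.44 ± 0.17 (SE; 95% interval -0.79 to -0.09; adjusted p = 0.933 by edgeR). Of the 16 FA diet dams, 11 were below the breeder diet median of their own injection (saline or fluoxetine). The permutation test of the mean log2 CPM of *Ehf* within drug, two-sided with 100000 resamples, gave an unadjusted p = 0.0129. Without FA diet + fluoxetine replicate 3 the fold change was -0.38. It was -0.36 ± 0.24 (adjusted p = 0.870 by edgeR) under saline and -0.52 ± 0.25 (adjusted p = 0.9999) under fluoxetine. For fluoxetine it was -0.28 ± 0.17 (adjusted p = 0.597).

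*Elf5* and *Ehf* are neighbours in the genome, and their levels moved together between dams. Their annotated ends are 108409 bases apart on opposite strands, and 3 genes, none of them protein-coding, are annotated in between. The 250 bases before the canonical GENCODE start of *Elf5* (chr2:103254157-103254406, GRCm39, plus strand) are printed 5′ to 3′, since *Elf5* was the most abundant member, and the window overlaps no exon of the gene. It was searched for AGGAAG or the reverse complement CTTCCT, a core form of the motif of ETS factors, the family of both genes, and for the letters of 3 other motifs. A match would stand in capitals, and none of the 4 was found.
Elf5: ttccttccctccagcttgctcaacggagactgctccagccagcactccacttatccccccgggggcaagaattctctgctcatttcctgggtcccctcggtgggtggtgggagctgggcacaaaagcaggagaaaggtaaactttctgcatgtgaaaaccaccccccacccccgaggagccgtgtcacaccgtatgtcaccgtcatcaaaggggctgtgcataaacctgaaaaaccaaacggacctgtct
In the windows of *Gata2* and *Gata3*, 201 and 108 of the 250 bases lie in exons of the same gene. Over the windows of all 10 members, 5 held the ETS letters on either strand, as did 28.9% of 21770 protein-coding promoters of the same length. The letters AGATAA of GATA factors, read on both strands, were in 0 of the members' windows and in 9.60% of all. TTCNNNGAA of STAT5, which reads the same on both strands, was in 1 (*Esr1*) and in 7.70% of all, and TTGGCA of nuclear factor I, on both strands, was in 2 (*Tfap2c* and *Esr1*) and in 12.3%. These counts describe letters in a short window and say nothing about binding.

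Between dams of the same group, log2 CPM of *Elf5* and *Ehf* deviated together, with Pearson's r = 0.82 and Spearman's rho = 0.82 over 31 dams (permutation p = 1e-05 for both, the smallest that 100000 resamples can give; adjusted over 45 pairs of members 0.00045). Without FA diet + fluoxetine replicate 3 r was 0.80, and without the 2 dams farthest from the median of *Elf5* it was 0.79. Scaled to the luminal reference genes in place of TMM it was 0.82. Of 10921 genes with a mean of at least 1 CPM, *Elf5* was the closest to *Ehf*. The ratio of *Elf5* to *Ehf* CPM nevertheless ranged from 3.67 to 10.6 between dams, with medians on the breeder diet of 5.16 under saline and 6.27 under fluoxetine, and on the FA diet of 6.72 and 6.46. Other genes within 500000 bases of the pair that passed the filter numbered 9, and their r with *Elf5* ran from -0.42 to 0.77. The highest of these, *Pdhx*, had r = 0.26 without FA diet + fluoxetine replicate 3. Others rose without that dam, and the 9 then ran from -0.42 (*Nat10*) to 0.63 (*Caprin1*, 0.19 with the dam). *BC016548*, the 1 gene between the pair that passed the filter, had r = 0.13 with the dam and 0.56 without it. The points of all these correlations share library and depth.

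*Gata3* and *Nfib* formed the other pair that held by both coefficients after TMM scaling. Their r was 0.63 and rho 0.72 (permutation p = 0.00025 and 4e-05; adjusted over 45 pairs 0.00562 and 9e-04). Here the dam that stood apart lay away from the trend, and r was 0.82 without it and 0.53 without the 2 dams farthest from the median of *Nfib*. Of the 45 pairs, 26 had a positive r and 4 passed an adjusted p of 0.05 by Pearson's r, these 2 among them. The other 2 were negative, *Elf5* with *Gata2* (r = -0.51, rho = -0.40; permutation p = 0.00206, adjusted 0.0309) and *Ehf* with *Tfap2c* (r = -0.60, rho = -0.38; permutation p = 0.00396, adjusted 0.0446), and neither passed by rho (adjusted permutation p = 0.4 for both). *Elf5* and *Tfap2c* had r = -0.70, and it was -0.30 without FA diet + fluoxetine replicate 3. Without that dam 2 pairs passed, *Elf5* with *Ehf* and *Nfib* with *Gata3*. Scaled to the luminal reference genes over all dams, *Ehf* with *Tfap2c* (r = -0.65, rho = -0.53) and *Nfib* with *Esr1* (r = 0.59, rho = 0.53) also passed by both coefficients. Their adjusted permutation p was 0.012 by r and 0.0441 by rho. On that scale *Elf5* with *Tfap2c* passed by r only (adjusted permutation p = 0.044), and *Elf5* with *Gata2* did not pass (0.225).

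**Figure D3:**
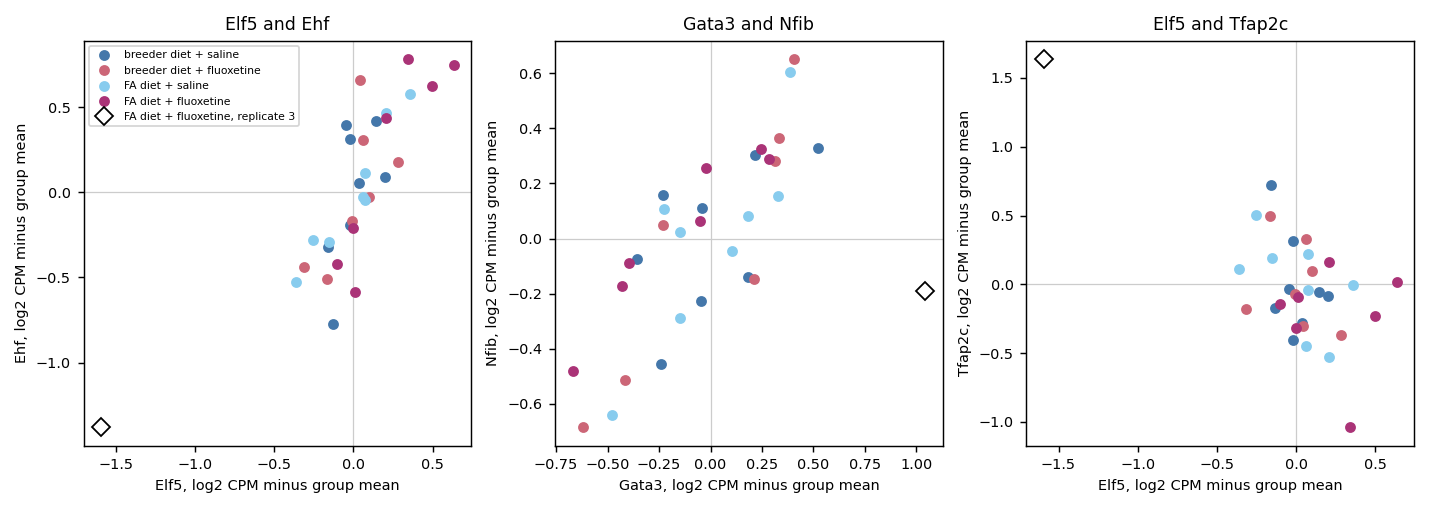
Each point is 1 dam, with log2 CPM minus the mean of its group on both axes, coloured by group, and the open diamond is FA diet + fluoxetine replicate 3. *Elf5* and *Ehf* lie along a line with the diamond at its lower end (r = 0.82), the diamond lies off the line of *Gata3* and *Nfib* (r = 0.63 with it, 0.82 without), and the slope of *Elf5* against *Tfap2c* rests largely on it.

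*Gata3*, a keeper of luminal differentiation, had the smallest unadjusted p of the members for fluoxetine. It lies on chromosome 2 (9861889 to 9894845, minus strand, ENSMUSG00000015619). Its lowest, median and highest CPM were 23.0, 28.5 and 42.2 in breeder diet + saline and 25.4, 45.2 and 51.8 in breeder diet + fluoxetine. They were 20.0, 27.6 and 36.5 in FA diet + saline and 22.0, 34.2 and 72.4 in FA diet + fluoxetine. Dams with fluoxetine lay higher in the middle of the range, 11 of 15 above the saline median of their diet, and the groups overlapped. The log2 fold change was 0.42 ± 0.14 (SE; 95% interval 0.13 to 0.70; adjusted p = 0.360 by edgeR), or 1.33-fold. It was 0.43 ± 0.20 on the breeder diet and 0.40 ± 0.19 on the FA diet, with an interaction of -0.03 ± 0.28 (adjusted p = 0.996 by edgeR). The FA diet value holds FA diet + fluoxetine replicate 3, and without that dam the interaction was -0.25 (adjusted p = 0.997 by edgeR). With all dams, the permutation test within diet gave an unadjusted p = 0.0137. Within the FA diet, same-numbered dams of both drug groups deviated together. In a fit of the FA diet dams alone the fold change was 0.40 without and 0.35 with the replicate block (adjusted p = 0.744 and 0.778 by edgeR), and 0.11 with the block and without the dams numbered 3 (adjusted p = 0.845). For FA the fold change of *Gata3* was -0.09 ± 0.14 (adjusted p = 0.989 by edgeR), -0.20 without FA diet + fluoxetine replicate 3 and -0.25 without breeder diet + fluoxetine replicate 13 as well. For fluoxetine the fold change of *Gata3* without FA diet + fluoxetine replicate 3 was 0.30 and the unadjusted p of edgeR 0.0150 (adjusted p = 0.459). Without breeder diet + fluoxetine replicate 13 as well it was 0.35 (adjusted p = 0.343 by edgeR). *Gata3un*, on the same strand, shares 77 exon bases with *Gata3* and had 1132 counts beside the 25137 of *Gata3*.

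*Nfib* lies on chromosome 4 (82208410 to 82623987, minus strand, ENSMUSG00000008575). The lowest, median and highest CPM were 86.2, 120.005 and 148 in breeder diet + saline and 90.8, 151 and 229 in breeder diet + fluoxetine. They were 74.0, 119.6 and 175 in FA diet + saline and 104, 144 and 182 in FA diet + fluoxetine. For *Nfib* 12 of 15 dams with fluoxetine were above the saline median of their diet, and the ranges overlapped. The log2 fold change for fluoxetine was 0.33 ± 0.13 (SE; 95% interval 0.08 to 0.59; adjusted p = 0.409 by edgeR), or 1.26-fold, with an unadjusted permutation p of 0.0178. It stayed at 0.34 without FA diet + fluoxetine replicate 3 (adjusted p = 0.421 by edgeR). Without breeder diet + fluoxetine replicate 13 as well it was 0.39 (adjusted p = 0.317 by edgeR). With all dams it was 0.35 on the breeder diet and 0.32 on the FA diet. For FA it was -0.04 ± 0.13.

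*Tfap2c* (chromosome 2, 172391321 to 172400542, plus strand, ENSMUSG00000028640) had a lowest, median and highest CPM of 7.71, 9.72 and 17.0 in breeder diet + saline and 9.17, 11.3 and 16.8 in breeder diet + fluoxetine. They were 6.84, 10.3 and 14.1 in FA diet + saline. The FA diet + fluoxetine dams had 6.67, 12.7 and 43.1. All groups overlapped, and the highest value came from the dam that stood apart. The log2 fold change for fluoxetine was 0.43 ± 0.18 (SE; adjusted p = 0.430 by edgeR; unadjusted permutation p = 0.0433). Without that dam it was 0.21 (unadjusted p of edgeR 0.0945). With all dams it was 0.20 ± 0.25 on the breeder diet and 0.65 ± 0.25 on the FA diet, which holds that dam. *Gata2* (chromosome 6, 88170559 to 88184018, plus strand, ENSMUSG00000015053) was measured by 600 counts in all, 175 of them in the same dam. Its lowest, median and highest CPM were 0.151, 0.469 and 0.777 in breeder diet + saline and 0.354, 0.473 and 1.48 in breeder diet + fluoxetine. They were 0, 0.470 and 1.21 in FA diet + saline and 0.298, 0.871 and 3.06 in FA diet + fluoxetine. The 0 was FA diet + saline replicate 2, where a count of 0 allows up to 0.173 CPM (3 counts, counting error only). The log2 fold change was 0.82 ± 0.40 (SE; adjusted p = 0.501 by edgeR; unadjusted permutation p = 0.0208). Without the dam it was 0.61 (unadjusted p of edgeR 0.128). So of the 4 members counted for fluoxetine, *Gata3* and *Nfib* were counted with and without FA diet + fluoxetine replicate 3, and *Tfap2c* and *Gata2* only with it. In the fit without that dam 9.21% of 14247 genes reached that level. For fluoxetine the 7 fibroblast markers also turned with that dam, 5 higher and 2 lower with it (median log2 fold change 0.09), and 7 lower without it (median -0.48, 5 at an unadjusted p of 0.05 or below, none past the FDR). Their part in the members' values was not tested. The antisense gene *Spehd* shares 921 exon bases with *Gata2* and had 5 counts, and the strand setting of the counting is not given in the sources used here.

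**Figure D4:**
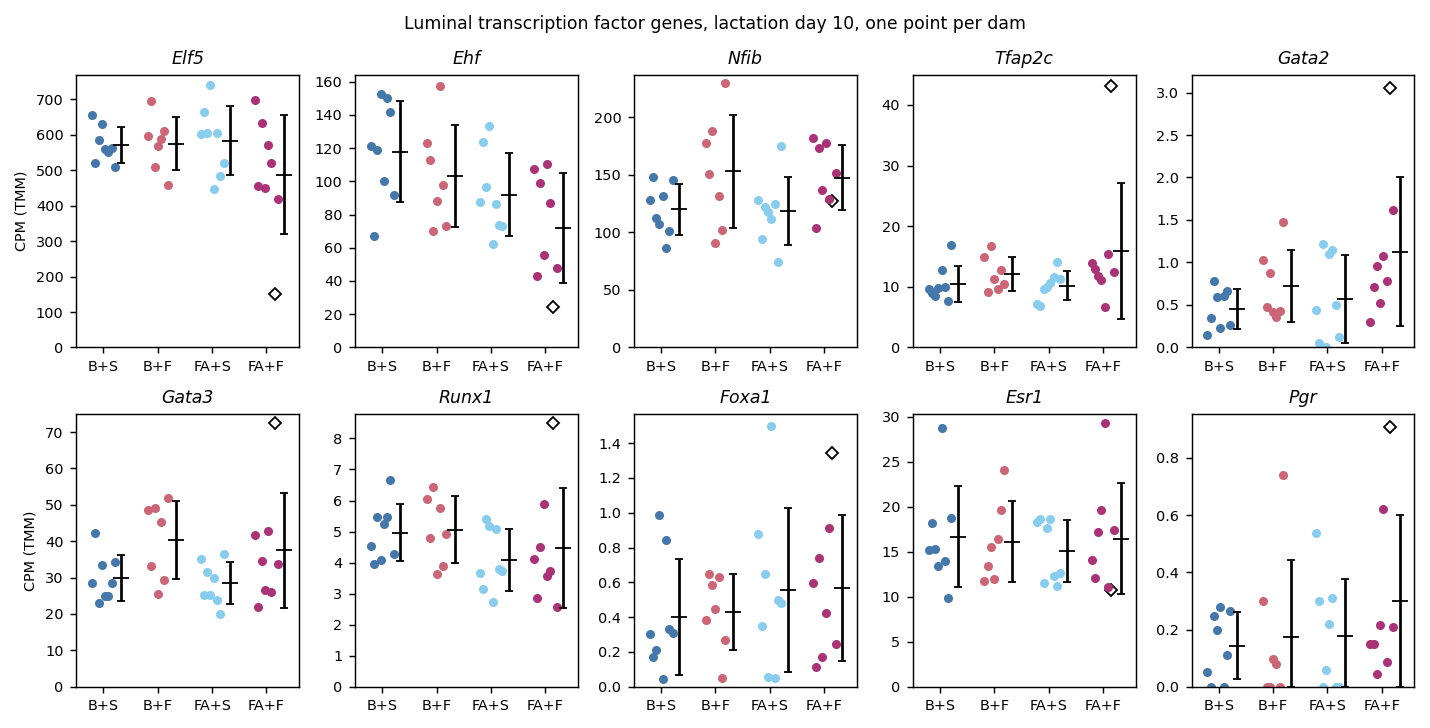
CPM of the 10 genes in each dam, with the mean and SD of each group beside the points (B, breeder diet; FA, FA diet; S, saline; F, fluoxetine), and FA diet + fluoxetine replicate 3 as an open diamond. Groups overlap in every panel, and the diamond is lowest for *Elf5* and *Ehf* and highest for *Tfap2c*, *Gata2*, *Gata3*, *Runx1* and *Pgr*.

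The remaining factors had log2 fold changes for fluoxetine near 0, some of them with wide intervals. *Esr1* (chromosome 10, 4561593 to 4955626, plus strand, ENSMUSG00000019768) had a median CPM on the breeder diet of 15.2 under saline and 15.6 under fluoxetine, and on the FA diet of 15.1 and 15.7, within a range of 9.82 to 29.4 CPM over all dams. Its log2 fold change for fluoxetine was 0.04 (95% interval -0.26 to 0.33; adjusted p = 0.957 by edgeR) and for FA -0.06 (-0.35 to 0.24). *Runx1* (chromosome 16, 92398354 to 92623037, minus strand, ENSMUSG00000022952) had medians of 4.89, 4.91, 3.75 and 3.92 CPM in the same order of groups and a range of 2.56 to 8.49 CPM. Its fold change was 0.08 for fluoxetine (-0.21 to 0.38) and -0.23 for FA (-0.53 to 0.07; adjusted p = 0.933 by edgeR), and without FA diet + fluoxetine replicate 3 these were -0.03 and -0.34. Without that dam 2 members were counted for FA, *Ehf* and *Runx1*, where 6.99% of all genes reached an unadjusted p of 0.05, and neither passed the FDR (adjusted p = 0.619 and 0.585 by edgeR). Without breeder diet + fluoxetine replicate 13 as well, *Gata3* was the third (7.26% of all genes, adjusted p = 0.653 by edgeR). The intervals of *Esr1* and *Runx1* given above, from the fit of all dams, leave room for changes of either sign. *Foxa1* (chromosome 12, 57587414 to 57593702, minus strand, ENSMUSG00000035451) rested on 377 counts in all, with group medians of 0.305, 0.445, 0.490 and 0.510 CPM. Its fold change was 0.08 for fluoxetine (-0.79 to 0.94) and 0.45 for FA (-0.42 to 1.32), and its levels varied by a CV of 74.6% between dams where counting error alone would give 30.998%.

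*Pgr* (chromosome 9, 8899830 to 8968612, plus strand, ENSMUSG00000031870) had no count in 8 of 31 dams, where a count of 0 allows up to between 0.107 and 0.243 CPM. Group medians on the breeder diet were 0.154 CPM under saline and 0.0787 under fluoxetine, and on the FA diet 0.139 and 0.180. The highest were 0.909 CPM in FA diet + fluoxetine replicate 3 and 0.739 CPM in breeder diet + fluoxetine replicate 9. A fit without the filter gave log2 fold changes of 0.45 ± 0.65 (SE) for fluoxetine and 0.56 ± 0.65 for FA (adjusted p = 0.9999 and 0.99997 by edgeR), so that the error exceeded the estimate.

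**Figure D5:**
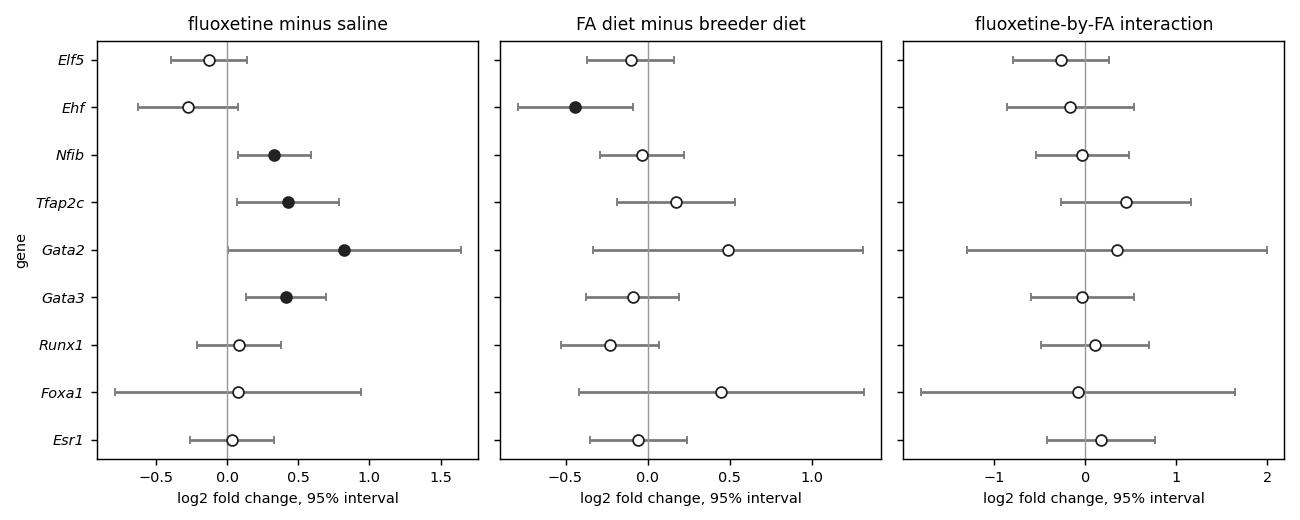
Log2 fold change with its 95% interval for the 9 members tested, for fluoxetine, for FA and for the fluoxetine-by-FA interaction. Filled points have an unadjusted p of 0.05 or below, and these are *Nfib*, *Tfap2c*, *Gata2* and *Gata3* for fluoxetine and *Ehf* for FA, of which none passed an FDR of 10%.

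Relatives of the members were looked at in the same way. Of 30 genes of the same families or partners, 20 were tested and none passed the FDR. For fluoxetine 7 were higher and 13 lower, with a median log2 fold change of -0.05 over the 20. An unadjusted p of 0.05 for fluoxetine was reached by 3, all higher, where 9.92% of all genes tested reached it. They were *Nfia*, the nuclear factor I gene closest to *Nfib* (0.37, adjusted p = 0.372 by edgeR), *Esrra*, the oestrogen-related receptor of energy metabolism (0.27, adjusted p = 0.383), and *Elf3*, an epithelial ETS gene (0.70, adjusted p = 0.430, and 0.28 without FA diet + fluoxetine replicate 3). The family gene with the highest level per kb was *Nr3c1* (the glucocorticoid receptor) among nuclear receptors at 8.04 CPM per kb, *Nfix* at 3.66, *Tfap2a* at 3.07, *Cbfb*, the partner of RUNX factors, at 1.39, *Elf2* at 1.20 and *Zfpm1*, a GATA cofactor, at 0.832. *Gata1*, *Gata4*, *Gata5*, *Gata6*, *Zfpm2*, *Spdef*, *Foxa2*, *Foxa3*, *Tfap2d* and *Tfap2e* did not pass the filter. *Foxa3* was the higher of the other *Foxa* genes, at 0.0175 CPM per kb.

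Among 23 other factors of luminal and alveolar cells, 22 were tested and *Myb* did not pass the filter. None passed the FDR, 11 were higher and 11 lower for fluoxetine, and the median log2 fold change was -0.01. The 3 of smallest p were *Cited1*, a coactivator in hormone-sensing cells (0.82 ± 0.21, SE; adjusted p = 0.230 by edgeR, and 0.62 without FA diet + fluoxetine replicate 3), *Creb3l2*, a membrane-bound factor of secretory cells (-0.26, adjusted p = 0.583), and *Stat5b*, a relay of prolactin (-0.18, adjusted p = 0.543). Of 9 hormone-sensing genes only *Prlr*, *Wnt4*, *Cited1* and *Tbx3* were tested and *Areg*, *Tnfsf11*, *Calca*, *Greb1* and *Prom1* did not pass the filter. For fluoxetine 3 of these 4 were higher and 1 lower, with none past the FDR. *Cited1* and *Tbx3* stand on both lists. Beside *Cited1*, the genes of smallest p were *Wnt4*, a signal of progesterone-responsive cells (0.75, adjusted p = 0.559 by edgeR, and 0.14 without that dam), and *Prlr*, the prolactin receptor (-0.00, adjusted p = 0.996). The 8 milk protein genes were all lower for fluoxetine, with a median of -0.20 and with none past the FDR, and 7 of them were lower without FA diet + fluoxetine replicate 3 (median -0.13), and 6 without breeder diet + fluoxetine replicate 13 as well (median -0.064).

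The genes whose level followed that of a member most closely differed between members. For *Elf5* they were *B4galt1*, part of lactose synthase (r = 0.93, rho = 0.79), *Baiap2l1* (r = 0.92) and *Slc5a1*, a glucose transporter (r = 0.91), over 10921 genes and 31 dams, and for *B4galt1* r was 0.74 without FA diet + fluoxetine replicate 3. After *Elf5*, *Ehf* was closest to *Ccl28* (r = 0.80), a chemokine of secretory epithelia, and *Cnp* (r = 0.78). *Nfib* was closest to *Nfia* (r = 0.88, and 0.89 without the dam), *Naca* (0.86) and *Tent5a* (0.84). *Gata3* followed *Gpx4* (0.87), *Ccdc107* (0.85) and *Tmsb4x* (0.84). *Esr1* followed *Jade1* (0.81), *Krt17* (0.75), a keratin of basal cells, and *Epb41l4b* (0.73). The closest genes of *Tfap2c* were *Myh10* (0.77), *Cpt1a* (0.76) and *Cttn* (0.76), and r with *Myh10* was 0.57 without the dam. *Runx1* was closest to *Psip1* (0.77), *Rb1* (0.74) and *Mex3d* (0.71). The rare members were closest to *Meg3* (0.76), *Als2cl* (0.72) and *Mcf2l* (0.71) for *Gata2*, to *Ip6k2* (0.69), *C4b* (0.66) and *Snx33* (0.65) for *Foxa1*, and to *Zfp62* (0.74), *Nr2c2ap* (0.67) and *Eaf2* (0.65) for *Pgr*. These genes were picked for their r and it has no test.

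Set against the summed levels of 6 marker lists, of milk protein genes, luminal reference, myoepithelial cells, adipocytes, fibroblasts and leukocytes, 0 of 60 relations of a member with 1 of 6 lists passed an adjusted permutation p of 0.05 by both coefficients. *Esr1* and the 9 myoepithelial markers had r = 0.57 and rho = 0.58 (permutation p = 0.00174 and 0.00221; adjusted over the 60 relations 0.0810 and 0.0663), and r was 0.59 without the 2 dams farthest from the median of the marker sum. *Nfib* and the 8 milk protein genes had r = 0.42 and rho = 0.65 (permutation p = 0.00563 and 1e-05; adjusted 0.106 and 6e-04), with r = 0.74 without the 2 farthest dams. *Gata3* and the milk protein genes had r = -0.24 and rho = 0.30 (permutation p = 0.31 and 0.0902; adjusted 0.443 and 0.437), and r was 0.66 without the 2 farthest dams and 0.70 without FA diet + fluoxetine replicate 3, so that its sign rests on that dam. *Elf5* and the milk protein genes had r = 0.81 and rho = 0.34 (permutation p = 0.0188 and 0.0965; adjusted 0.188 and 0.437), and without the 2 farthest dams r was 0.29, so that this relation rests on them. The summed myoepithelial markers lay between 257 and 702 CPM, and their lowest to highest values on the breeder diet were 406 to 515 CPM under saline and 257 to 536 under fluoxetine, and on the FA diet 422 to 702 and 274 to 619. Of the 9 markers, 7 were lower for fluoxetine, 4 of them at an unadjusted p of 0.05 or below, where 9.92% of all genes tested were. For FA 7 were higher, 4 of them at that level, where 5.08% of all genes tested were. None of the markers passed the FDR by edgeR. Their part in the level of *Esr1* was not tested.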

How the data were processed

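Poly-A RNA of 31 mammary glands, 1 library per dam, was sequenced on a NovaSeq. Per the paper's methods and the submitters' processing notes, the authors checked reads with FastQC 0.11.7, trimmed them with Trim Galore 0.4.4, aligned these with HISAT2 against GRCm39, and took gene counts from HTSeq (intersection-nonempty). The annotation release and the strand setting are not given in the sources used here. The authors deposited raw whole-number counts per Ensembl gene. Symbols, positions and exon lengths came from GENCODE vM39, and promoter windows from the GRCm39 genome. Sequences of the other windows are not reported here.

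The counts were fitted in R 4.3.3 with edgeR 4.0.16 (filterByExpr by group, TMM, 4 group means over all 31 libraries, robust quasi-likelihood test) and p-values were adjusted by Benjamini-Hochberg over the 14362 genes left of 55379. Contrasts were fluoxetine, FA, their interaction and the effects within 1 diet or drug. CPM are TMM-scaled, and for log2 CPM a prior count of 2 was added. Correlations used deviations from group means, and permutation tests were two-sided with 100000 resamples within groups or strata. Standard errors come from the fold change and F statistic. The tests were tested on simulated data first. Total counts were 15412542 to 36000439, and counting error alone would give a CV of 0.924% (*Elf5*) to 48.7% (*Pgr*), below the spread between dams for each member. No 2 libraries of a group agreed within sampling noise (lowest chi-square per degree of freedom 15.8).

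All 10 members are named. Of the lists of relatives, other luminal factors and hormone-sensing genes, named are genes past an FDR of 10%, the 3 of smallest p for fluoxetine per list, the highest per kb in each family, and genes that failed the filter. For each member the 3 genes of highest r are named (mean of at least 1 CPM, symbols of the Gm and Rik kind left out). *Pdhx* and the other neighbours of *Elf5* and *Ehf*, *Gata3un* and single markers were chosen after their values were seen. The members and lists were chosen with earlier results of these data known. Alternatives were the likelihood ratio test, DESeq2 1.42.0, RLE, luminal reference scaling, leaving out the 20 most abundant genes, no filter, a filter at 1 CPM in 7 libraries, a replicate block and each library left out. Leaving out 2 libraries together was chosen after seeing the data, as were blocked fits of the FA diet dams alone, since replicate numbers paired these groups: all 7 same-numbered pairs correlated over 0.1 (0.12 to 0.43), though the labels name no shared litter or day. In no other pair of groups did all pairs do so.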

Additional observations from a re-analysis of the deposited data

Results flagged for a closer look

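Within groups of 7 or 8 dams, 9 of 68 sets of values held a sample far from the others by Dixon's test, which flags about 1 in 20 groups by chance. In FA diet + fluoxetine replicate 3, *Tfap2c* was 43.1 CPM (nearest dam of the group 15.5) and *Gata3* 72.4 CPM (nearest 42.7). In the same dam the summed milk protein genes were 58609 CPM (nearest 537576), the fibroblast markers 1004 CPM (nearest 138), the leukocyte markers 48.1 CPM (nearest 17.5) and the mast cell markers 71.2 CPM (nearest 4.12). *Pgr* was 0.739 CPM in breeder diet + fluoxetine replicate 9, where the nearest dam had 0.30003 CPM. The summed milk protein genes were 318400 CPM in breeder diet + fluoxetine replicate 13 (nearest 619129), and the mast cell markers 4.92 CPM in breeder diet + fluoxetine replicate 5 (nearest 1.87).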

How the results depend on the processing

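No member passed an FDR of 10% in any contrast under the 8 other settings of tool, scaling, filter and block, in any of the 31 fits that left out 1 library, or without both libraries of lowest milk share (chosen after seeing the data). The counts over all genes for fluoxetine did move, from 3 to 45 by the likelihood ratio test and 70 by DESeq2, and from 0 to 19 when 1 library was left out. *Gata3*, *Nfib*, *Tfap2c* and *Gata2* kept a positive and *Ehf* and *Elf5* a negative sign for fluoxetine in all of these fits in which they were tested. *Gata2* and *Foxa1* did not pass the filter at 1 CPM. The cause of the sign changes below was not tested.

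Dams share replicate numbers across groups, but the deviations of 28 same-numbered pairs correlated at -0.22 to 0.43 (median 0.08, 12 over 0.1), so that the numbers were not taken as a pairing of all groups. They paired the 2 FA diet groups (7 of 7 over 0.1), where 9 of 14 samples correlated best with their own number. There, with the block and FA diet dams alone, 0 members had an unadjusted p of 0.05 or below for fluoxetine (6.68% of all genes), against 1 without the block (6.60%) and 2 in the fit of all groups (9.98%), and no sign changed. With the block and without the dams numbered 3, 1 member had such a p (8.62% of all genes). It was *Nfib*, at 0.26 (adjusted p = 0.550 by edgeR). With the replicate block over all groups 0 genes passed for fluoxetine, 3 members (*Nfib*, *Gata3*, *Esr1*) had an unadjusted p of 0.05 or below for fluoxetine, 2 (*Ehf*, *Runx1*) for FA and 1 (*Esr1*) for the interaction (6.73%, 6.18% and 3.11% of all genes), and *Esr1* was -0.36 for fluoxetine and 0.21 for FA, *Foxa1* -0.044 for FA and *Runx1* -0.18 for the interaction. Scaled to the luminal reference, which moved the median interaction of all genes by 0.11 and raised the share of genes with a positive interaction to 66.6%, *Nfib* was 0.080 and *Gata3* 0.045 for the interaction. Without both libraries of lowest milk share, *Foxa1* was -0.10 for fluoxetine, *Tfap2c* -0.046 for FA, and *Gata2* -0.15 and *Runx1* -0.17 for the interaction. Without FA diet + fluoxetine replicate 3, 2 of 45 pairs of members passed instead of 4. Scaled to the luminal reference, *Nfib* with *Esr1* and *Elf5* with *Tfap2c* passed by r in addition, and *Elf5* with *Gata2* no longer did.

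Leaving out 1 library, the fluoxetine estimate ran from -0.032 to 0.12 for *Runx1*, from -0.094 to 0.28 for *Foxa1* and from -0.046 to 0.11 for *Esr1*. The FA estimate ran from -0.089 to 0.026 for *Nfib*, from -0.035 to 0.24 for *Tfap2c* and from -0.14 to 0.022 for *Esr1*. The interaction ran from -0.13 to 0.093 for *Nfib*, from -0.070 to 0.61 for *Gata2*, from -0.25 to 0.052 for *Gata3*, from -0.11 to 0.19 for *Runx1*, from -0.43 to 0.32 for *Foxa1* and from -0.010 to 0.29 for *Esr1*. Counting error alone would give a CV of 25.6% for *Gata2*, 30.998% for *Foxa1* and 48.7% for *Pgr*, against 83.1%, 74.6% and 115% between dams.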
